A study of Mus musculus with 6 samples.

Results

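The genes described here are 33 genes of mitochondrial fusion, fission, transport along microtubules and contact with the endoplasmic reticulum (ER). They were chosen by name, as a list of the process and not by a threshold on measured values, and all 33 were found among the 55471 genes of the deposited table. The series compared 3 wild-type (WT) libraries of 10T1/2 cells with 3 libraries of the same line whose genotype label is Ranbp2 KO. Ranbp2 encodes a large protein of the cytoplasmic face of the nuclear pore. 10T1/2 is an established mouse embryonic fibroblast line; both groups grew untreated in serum-containing medium, and the KO cells were made by CRISPR/Cas9 editing. Whether they derive from 1 clone or from several is not given in the sources used here, and the p-values below cover the spread among these 6 libraries, which may be technical.

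Mitochondria form a network that is remodelled by membrane-bound GTPases. Mitofusins join outer membranes, Opa1 joins inner membranes, and Dnm1l, recruited from the cytosol by adaptors, constricts and divides the organelle. Kinesin motors pull mitochondria along microtubules through the Trak adaptors and the Miro GTPases (Rhot1 and Rhot2), and tether proteins hold mitochondria close to the ER, where lipids and calcium pass between the organelles. Per its title, the series addresses a direct interaction of mitochondria and nuclear pores.

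Levels are given as CPM, the count of a gene scaled to a common library total, and differences as log2 of KO-labelled over WT. Library totals lay between 32072817 and 46321967 expected counts. Ranbp2 itself measured 294, 289 and 293 CPM under the KO label against 219.6, 249.96 and 248.8 CPM in WT, so its mRNA was not lower where the label says KO (log2 difference 0.28, SE 0.07, adjusted p = 0.012 by edgeR). A count per gene does not show an edit within the transcript, and the libraries are therefore called KO-labelled throughout. All 8 fibroblast markers examined reached 1 CPM in at least 1 library, with sums of 15420 to 17330 CPM in KO-labelled and 15730 to 18600 CPM in WT libraries, although Thy1 stood at a mean of 0.535 against 58.3 CPM. Summed markers of epithelial, immune and skeletal muscle cells stayed at or below 9.38 CPM in every library, and those of endothelial cells, nearly all from Tek, lay at 20.8 to 24.7 against 35.2 to 39.5 CPM. Summed neural markers were 261 to 282 against 185 to 198 CPM, mostly Map2, with Rbfox3 and Gfap below 0.2 CPM. Tubb3, also in this set, was lower under the KO label, at a mean of 2.03 against 15.4 CPM. The part of these markers in the results was not tested. In bulk RNA a smaller share of expressing cells and less RNA per cell cannot be told apart.

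Most of these genes differed little between the groups. Of the 33 members, 32 had enough reads to be tested; 5 were called higher (Vapa, Chchd3, Hspa9, Mff and Vdac2), 2 were called lower (Trak1 and Vapb) and 25 did not pass, at an adjusted p below 0.05 by edgeR's quasi-likelihood test. The called share was 21.9%, where 38.9% of all 15454 genes tested were called (17.6% higher and 21.3% lower). None of the 32 tested members differed by more than 0.41 on the log2 scale, and 29 of 32 lay within 0.3 of 0. The median size of the log2 difference, sign aside, was 0.13 over the members and 0.21 over the 9411 genes at or above the WT level of the weakest tested member. Those 9411 genes were not matched in level, with a median of 44.5 CPM in WT against 89.4 CPM for the members. The median signed difference was 0.01 for members and 0.01 for all genes. The 3 KO-labelled values lay wholly above the WT values in 9 members and wholly below in 8, a share of 53.1% where it was 51.4% of all genes.

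The medians of chromosomes differed between the groups, and most calls changed when these were taken out. The median log2 difference of all tested genes ran from -0.28 on chromosome 13 to 0.29 on chromosome 1, and 6 of the 7 called members lay on a chromosome whose median had the sign of their own difference. Over all 32 members this was so for 15, and over all genes for 61.9%. When the median of each chromosome was taken out in the fit, 33.1% of all genes were called, and 1 of the 7 calls, Vdac2, was kept. In that fit 4 other members, Mfn2, Spire1, Phb2 and Trak2, were called lower, which turned a split of 5 higher and 2 lower into 1 and 4. DESeq2 gave 6 higher and 4 lower. Leaving out 1 library changed the number called higher to 3 (without KO-labelled library 1 or 3) or 2 (without WT library 2). Beside each called member, the value with the chromosome median taken out is given as well. One median need not hold along a whole chromosome: on chromosome 4, the median within 5 Mb was -0.05 at Mfn2 and 0.22 at Oma1. Why the medians differed was not tested.

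**Figure D1:**
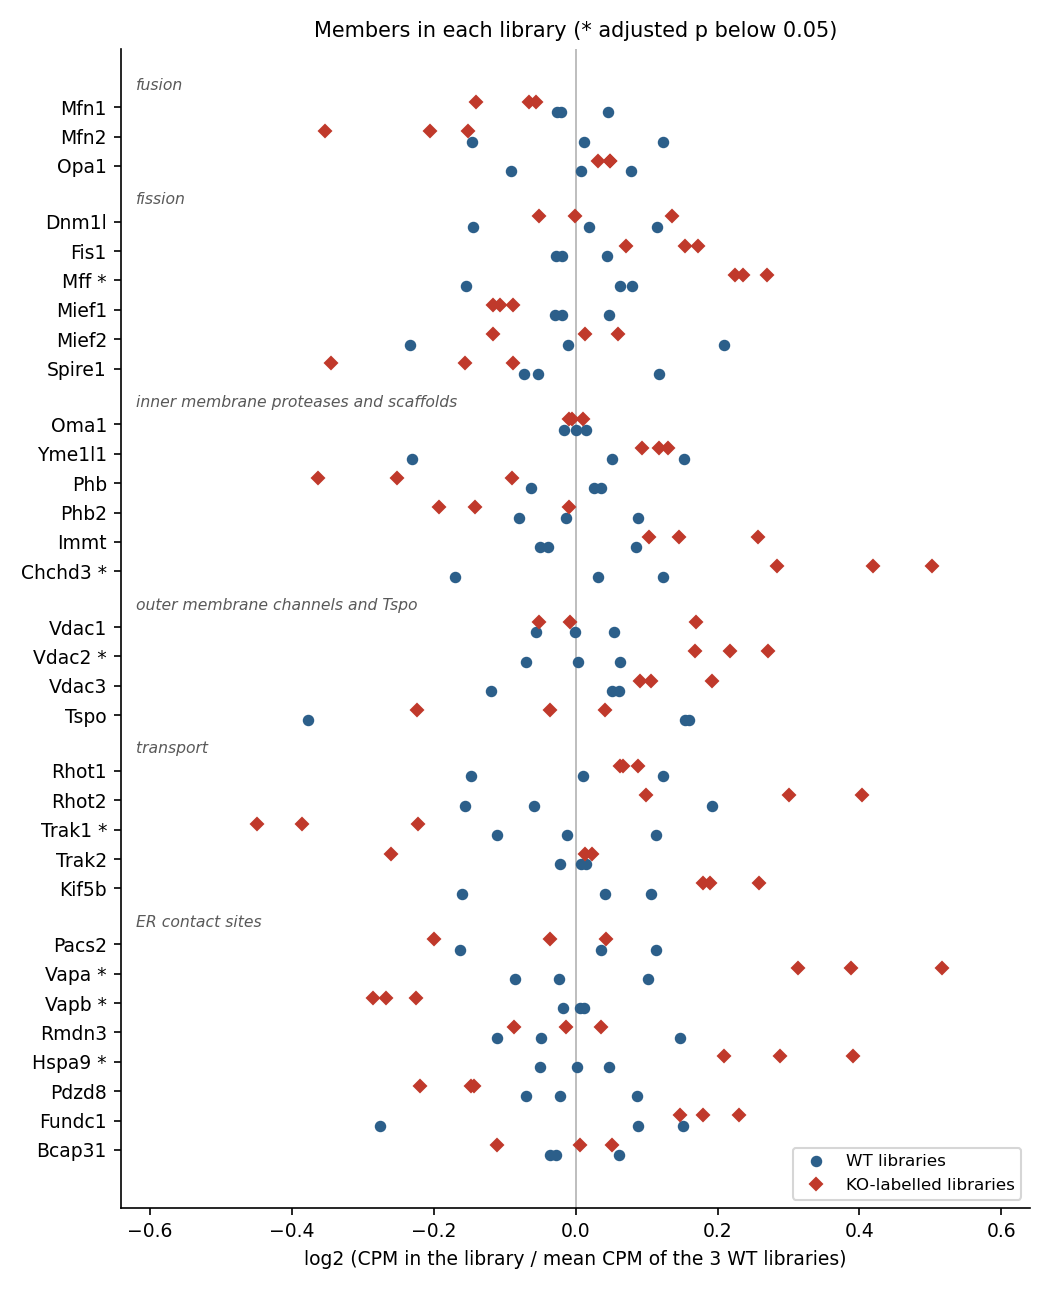
Each row is 1 tested member, grouped by role; points give log2 of the CPM in a library over the mean of the 3 WT libraries, with circles for WT and diamonds for KO-labelled libraries, and asterisks mark the 7 called genes. Vapa and Chchd3 have all diamonds to the right of all circles, Trak1 and Vapb all diamonds to the left, and Oma1 has all 6 points near 0.

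The clearest contrast was between the paralogs Vapa and Vapb, ER membrane proteins that bind FFAT motifs of partners such as Rmdn3 on the mitochondrial surface. Vapa (ENSMUSG00000024091, chromosome 17, 65578327 to 65613555, minus strand) measured 229, 199 and 209.5 CPM under the KO label against 151, 158 and 172 CPM in WT. All 3 KO-labelled values were above the highest WT value. Vapa rose by 0.41 (SE 0.08, 95% interval 0.23 to 0.59, adjusted p = 0.00286 by edgeR). Vapb (ENSMUSG00000054455, chromosome 2, 173737511 to 173784336, plus strand) measured 101, 105 and 102 CPM under the KO label against 123, 124 and 121 CPM in WT. Here all KO-labelled values were below the WT values, and the spread within each group was small. Vapb fell by 0.26 (SE 0.06, interval -0.39 to -0.13, adjusted p = 0.00686). Both calls held with each library left out in turn, with adjusted p from 0.0022 to 0.0211 for Vapa and from 0.0132 to 0.0461 for Vapb.

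Within a library, the ratio of Vapa to Vapb does not depend on scaling. It was 2.28, 1.90 and 2.06 in the KO-labelled libraries and 1.23, 1.28 and 1.42 in the WT libraries, on the CPM scale. The lowest KO-labelled ratio was thus above the highest WT ratio. The difference in log2 ratio was 0.67, with p = 0.1 by an exact two-sided permutation test, the smallest that 3 against 3 libraries allow (adjusted p = 0.275 over 11 ratios). With the chromosome medians taken out of the ratio it was 0.29, an alternative chosen after seeing the data. The 2 genes summed to 315 ± 13.3 CPM (SD, n = 3, as for each mean here) in KO-labelled and 283 ± 9.60 CPM in WT libraries. Per kb of exon Vapa was the higher of the pair in both groups, at 60.9 against 14.4 CPM per kb in KO-labelled and 45.9 against 17.2 CPM per kb in WT libraries. Chromosome medians were 0.27 for chromosome 17 and -0.11 for chromosome 2; without them the log2 differences were 0.13 for Vapa (adjusted p = 0.227) and -0.15 for Vapb (adjusted p = 0.076), so that neither was called. Within 5 Mb, the median over 24 tested neighbours of Vapa was 0.21 and over 74 neighbours of Vapb 0.02.

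**Figure D2:**
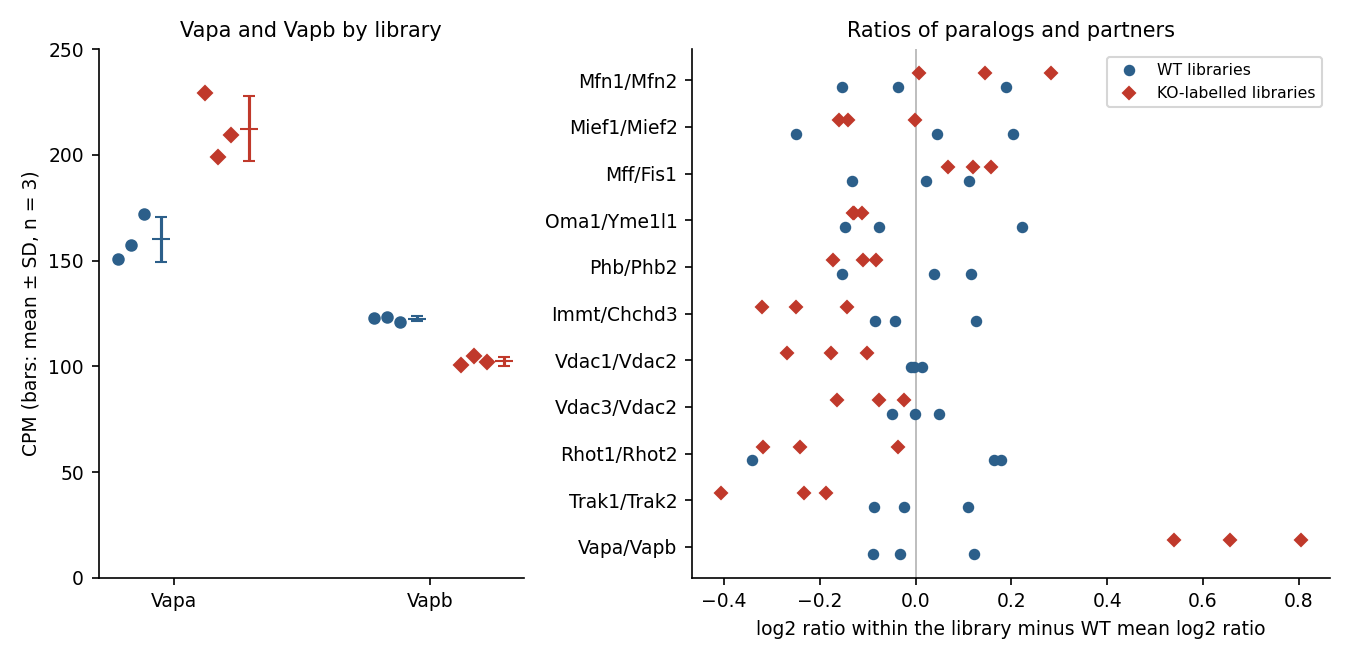
Left, CPM of Vapa and Vapb in each library with mean ± SD (n = 3); right, log2 ratios of 11 pairs of paralogs or partners within each library, set against the WT mean of the pair. Vapa is higher and Vapb lower in all 3 KO-labelled libraries, and Vapa/Vapb, at a difference of 0.67, stands farther from 0 than the other 10 ratios; with chromosome medians taken out it is 0.29, and Oma1/Yme1l1, at -0.35, is farther from 0.

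Of the other members of the ER contact group, only Hspa9 was called. Hspa9, the mitochondrial HSP70 that links VDAC channels to ER calcium release channels, measured 920, 856 and 811 CPM under the KO label against 677, 703 and 725 CPM in WT. Its groups did not overlap, and it rose by 0.30 (SE 0.08, adjusted p = 0.0151 by edgeR). The call was lost without WT library 2 (adjusted p = 0.0655) and with the chromosome median of 0.11 taken out (0.19, adjusted p = 0.101). Pdzd8, an ER lipid transfer protein at contact sites, had a log2 difference of -0.17 (interval -0.32 to -0.02, adjusted p = 0.0743). Its KO-labelled values all lay below the WT values, and its chromosome had a median of -0.19. Fundc1, an outer membrane mitophagy receptor found at contact sites, stood at 27.2 ± 0.792 against 23.9 ± 3.64 CPM (interval -0.05 to 0.42, adjusted p = 0.194). Bcap31, an ER protein that binds Fis1, stood at 143 ± 8.16 against 145 ± 5.44 CPM, a log2 difference of -0.02 with an interval of -0.17 to 0.14. Rmdn3 (PTPIP51), the outer membrane partner of the VAP proteins, stood at 21.2 ± 0.907 against 21.5 ± 2.05 CPM (interval -0.21 to 0.17). Pacs2, a sorting protein that keeps contacts in place, had an interval of -0.27 to 0.15. Pdzd8 overlaps Rps12-ps3 on the opposite strand, so reads of the pair may have been shared.

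For the 4 members with the smallest adjusted p, the bases before the transcript start were examined, because they lie next to called genes and include the VAP pair. Whether these bases regulate the genes was not tested. The Vapb window was numbered from base -250 to base -61, and the other windows from -250 to -1. By its coordinates, the Vapb window ends directly before the gene start printed above (173737511). Its numbering therefore counts from a start farther downstream, which is not given here. The sequences are from RefSeq (GRCm38.p6), 5′ to 3′ on the strand of the gene: Vapa at chr17:65613556-65613805, minus strand; Chchd3 at chr6:33060261-33060510, minus strand; Vapb at chr2:173737321-173737510, plus strand; Trak1 at chr9:121297252-121297501, plus strand. Capitals mark matches, on either strand, to the GC box (GGGCGG), the CCAAT box, the E-box (CACGTG), the core of the NRF1 motif (TGCGCA) or the ETS core (CCGGAA); neighbouring matches can overlap.
Vapa: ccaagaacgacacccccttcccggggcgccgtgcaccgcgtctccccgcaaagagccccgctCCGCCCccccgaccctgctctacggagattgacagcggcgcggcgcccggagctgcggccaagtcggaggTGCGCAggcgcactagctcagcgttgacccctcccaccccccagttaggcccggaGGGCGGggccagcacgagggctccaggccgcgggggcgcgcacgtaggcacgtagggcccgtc
Vapb: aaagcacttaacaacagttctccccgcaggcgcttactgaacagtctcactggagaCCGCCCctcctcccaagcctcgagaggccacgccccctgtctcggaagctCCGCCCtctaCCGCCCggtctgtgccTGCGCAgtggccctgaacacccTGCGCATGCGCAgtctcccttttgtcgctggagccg
Chchd3: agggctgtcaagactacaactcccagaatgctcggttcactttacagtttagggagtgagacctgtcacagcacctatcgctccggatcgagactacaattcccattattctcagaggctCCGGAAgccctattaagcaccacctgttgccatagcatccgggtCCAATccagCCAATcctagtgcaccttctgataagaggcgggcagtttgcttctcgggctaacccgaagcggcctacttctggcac
Trak1: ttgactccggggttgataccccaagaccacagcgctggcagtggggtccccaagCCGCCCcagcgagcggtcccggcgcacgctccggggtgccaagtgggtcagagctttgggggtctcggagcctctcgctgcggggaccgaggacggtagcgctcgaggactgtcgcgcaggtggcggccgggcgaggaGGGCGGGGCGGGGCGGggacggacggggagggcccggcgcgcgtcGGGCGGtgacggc

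The windows held different motifs. Vapa had 2 GC boxes and 1 NRF1 core in 250 bases, Vapb 3 GC boxes and 3 NRF1 cores, 2 of them side by side, in 190 bases, Trak1 5 GC boxes, and Chchd3 2 CCAAT boxes and 1 ETS core. None of the 4 windows held an E-box. Among 32851 RefSeq windows of 250 bases, 32.7% held a GC box, 33.8% a CCAAT box, 6.02% an E-box, 6.43% the NRF1 core and 12.0% the ETS core; over windows of 190 bases at the position of the Vapb window, 22.8% held a GC box, 26.7% a CCAAT box, 4.03% an E-box, 3.94% the NRF1 core and 7.4% the ETS core. The share of G and C was 74.8% for Vapa, 64.2% for Vapb, 53.2% for Chchd3 and 75.6% for Trak1, where the median of all windows was 52.4% at 250 bases. A match is a description of letters and not of binding.

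Among proteins that shape the inner membrane, Chchd3 was called. Chchd3 (MIC19, ENSMUSG00000053768, chromosome 6, 32790976 to 33060260, minus strand) is a subunit of the MICOS complex, which forms cristae junctions and bridges to the outer membrane. It measured 91.0, 106 and 99.99 CPM under the KO label against 66.5, 76.4 and 81.4 CPM in WT. The groups did not overlap, and the gene rose by 0.41 (SE 0.09, interval 0.20 to 0.61, adjusted p = 0.00616 by edgeR), a call that held with each library left out (adjusted p from 0.00375 to 0.0351). With the median of chromosome 6, 0.17, taken out, the difference was 0.24 (adjusted p = 0.0725).

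Immt (MIC60), the large MICOS subunit, lies on the same chromosome and stood at 218 ± 12.1 against 194 ± 10.3 CPM, a log2 difference of 0.17 that did not pass (adjusted p = 0.0897) and was 0.0015 without the chromosome median. The ratio of Immt to Chchd3 within a library was 2.35, 2.19 and 2.08 in the KO-labelled and 2.84, 2.45 and 2.53 in the WT libraries. It was lower in all KO-labelled libraries (difference in log2 ratio -0.24, exact permutation p = 0.1, the smallest allowed; adjusted p = 0.275), and since both genes lie on chromosome 6 its median leaves this ratio as it is. The prohibitins, which form rings in the inner membrane that hold proteases and lipids, did not pass, with Phb at 52.0 ± 4.99 against 61.1 ± 2.29 CPM (-0.23, adjusted p = 0.0534) and Phb2 at 122 ± 8.18 against 132 ± 7.81 CPM (-0.11, adjusted p = 0.266). Phb was called with DESeq2 (adjusted p = 0.0421), with no count filter (0.0162), without KO-labelled library 2 (0.0299) and without WT library 1 (0.0483), but with the chromosome median taken out it was -0.16 (adjusted p = 0.184). Phb2 was called lower with the chromosome median taken out (-0.28, adjusted p = 0.0172).

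The proteases that cut Opa1 did not differ beyond their spread. Oma1, activated when membrane potential is lost, measured 9.26, 9.14 and 9.16 CPM under the KO label against 9.20, 9.09 and 9.29 CPM in WT. These 6 values almost coincide, and the interval of the log2 difference was -0.20 to 0.20. Yme1l1, the constitutive protease, stood at 211 ± 2.77 against 195 ± 26.0 CPM (adjusted p = 0.373).

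None of the 3 fusion GTPases was called. Mfn1 stood at 40.3 ± 1.28 against 42.8 ± 1.19 CPM, a log2 difference of -0.09 with an interval of -0.24 to 0.06. Mfn2, which also tethers mitochondria to the ER, measured 73.0, 80.9 and 83.96 CPM under the KO label against 102, 94.0 and 84.3 CPM in WT. The KO-labelled values were the lower ones, by a narrow margin between the closest libraries, and the difference of -0.23 (SE 0.09) missed the threshold (adjusted p = 0.0561 by edgeR). It passed with DESeq2 (adjusted p = 0.0402), with no count filter (0.0116), without WT library 3 (-0.30, adjusted p = 0.0181) and with the chromosome 4 median of 0.12 taken out (-0.36, adjusted p = 0.011). The median over the 91 tested neighbours of Mfn2 within 5 Mb was -0.05, opposite in sign to that of the chromosome. For Spire1, Phb2 and Trak2, also called lower in that fit, the medians within 5 Mb were 0.21, 0.13 and 0.29, with the sign of their chromosomes. Opa1 was level at 89.8 ± 0.603 against 87.2 ± 5.07 CPM (interval -0.11 to 0.19).

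In the fission group, 1 of 6 tested genes was called. Mff, the main outer membrane receptor of Dnm1l, measured 90.6, 93.5 and 91.3 CPM under the KO label against 69.7, 80.96 and 81.96 CPM in WT. The KO-labelled values were all higher, and the log2 difference was 0.24 (SE 0.08, adjusted p = 0.0303 by edgeR). The call was lost on leaving out any of 5 libraries, WT library 3 being the exception, with adjusted p from 0.0571 to 0.105, and with no count filter (0.0678). Mff lies on chromosome 1, whose median of 0.29 exceeded its own difference, and with that median taken out the value turned to -0.04 (adjusted p = 0.707). Dnm1l, the dynamin that divides mitochondria, was level at 169 ± 11.5 against 165 ± 14.8 CPM (interval -0.16 to 0.22). Fis1, an outer membrane adaptor, stood at 62.3 ± 2.29 against 56.8 ± 1.56 CPM (adjusted p = 0.145).

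Of the MiD adaptors, which hold Dnm1l at the outer membrane, Mief1 (MiD51) stood at 33.4 ± 0.323 against 35.8 ± 1.02 CPM (adjusted p = 0.233) and Mief2 (MiD49) at 8.47 ± 0.530 against 8.54 ± 1.30 CPM (adjusted p = 0.949). Spire1, an actin nucleator that aids division at ER contacts, had a log2 difference of -0.19 (adjusted p = 0.104). With the chromosome median taken out it was -0.30 (adjusted p = 0.0226). Gdap1, an outer membrane protein of neurons and Schwann cells, had too few counts to be tested. It had 0, 1 and 0 counts in the KO-labelled and 5, 6 and 7 counts in the WT libraries, so that WT exceeded KO-labelled 15.1 times (95% exact Clopper-Pearson limits 2.38 and 629, for counting error only).

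Of the outer membrane channels, Vdac2 was called. Vdac2, a porin that also holds BAK at the outer membrane, measured 331, 319 and 308 CPM under the KO label against 261, 275 and 286 CPM in WT. The groups did not overlap, and the log2 difference was 0.22 (SE 0.07, adjusted p = 0.0304 by edgeR). It was the 1 called member whose call held with chromosome medians taken out (0.23, adjusted p = 0.0287), but it was lost on leaving out any library except WT library 3 (adjusted p from 0.0572 to 0.112) and with no count filter (0.14). Vdac1, the most abundant of the family per length, stood at 393 ± 32.5 against 382 ± 14.6 CPM (interval -0.14 to 0.22) and Vdac3 at 202 ± 7.67 against 184 ± 12.7 CPM (adjusted p = 0.187). The ratio of Vdac1 to Vdac2 was 1.30, 1.16 and 1.23 in the KO-labelled and 1.41, 1.39 and 1.38 in the WT libraries, lower in all 3 (difference in log2 ratio -0.18, exact permutation p = 0.1; adjusted p = 0.275) and -0.12 with the chromosome medians taken out. Tspo, the translocator protein of the outer membrane, varied as much within as between groups, at 70.6 ± 6.53 against 74.0 ± 14.7 CPM. Vdac2 overlaps Comtd1 and Tspo overlaps Mcat, each on the opposite strand.

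In the transport group, Trak1 was called lower. Trak1 (ENSMUSG00000032536, chromosome 9, 121297502 to 121474918, plus strand) is an adaptor that joins Miro on the mitochondrion to kinesin-1 and dynein. It measured 41.0, 42.9 and 48.1 CPM under the KO label against 60.6, 55.6 and 51.9 CPM in WT. The highest KO-labelled value was below the lowest WT value, and the gene fell by 0.35 (SE 0.09, interval -0.55 to -0.15, adjusted p = 0.0111 by edgeR). The call held with each library left out (adjusted p from 0.00515 to 0.047). With the chromosome 9 median of -0.17 taken out, the value was -0.18 (adjusted p = 0.144).

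Its paralog Trak2 stood at 111 ± 12.0 against 117 ± 1.51 CPM and did not pass (-0.07, adjusted p = 0.546). It lies on chromosome 1, with a median of 0.29, and was called lower once that was taken out (-0.36, adjusted p = 0.00888). The ratio of Trak1 to Trak2 was 0.422, 0.362 and 0.409 in the KO-labelled and 0.518, 0.473 and 0.452 in the WT libraries, lower in all 3 (difference in log2 ratio -0.28, exact permutation p = 0.1; adjusted p = 0.275). This direction turned with the chromosome medians taken out, to 0.18. The Miro GTPases did not pass, with Rhot1 at 77.7 ± 0.725 against 73.9 ± 6.90 CPM and Rhot2 at 36.8 ± 3.87 against 30.4 ± 3.87 CPM. The log2 difference of Rhot2, 0.27 (adjusted p = 0.0726), equalled the median of its chromosome, 0.27, and passed on omission of KO-labelled library 2 (adjusted p = 0.0456) and likewise of WT library 1 (0.0165). Rhot2 overlaps Wdr90 on the same strand. Kif5b, the kinesin-1 heavy chain of most cell types, stood at 400 ± 11.8 against 346 ± 32.6 CPM (0.21, adjusted p = 0.072), and passed with DESeq2 (adjusted p = 0.0352) and without WT library 3 (adjusted p = 0.0394), but was 0.10 with the chromosome median taken out (adjusted p = 0.395).

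**Figure D3:**
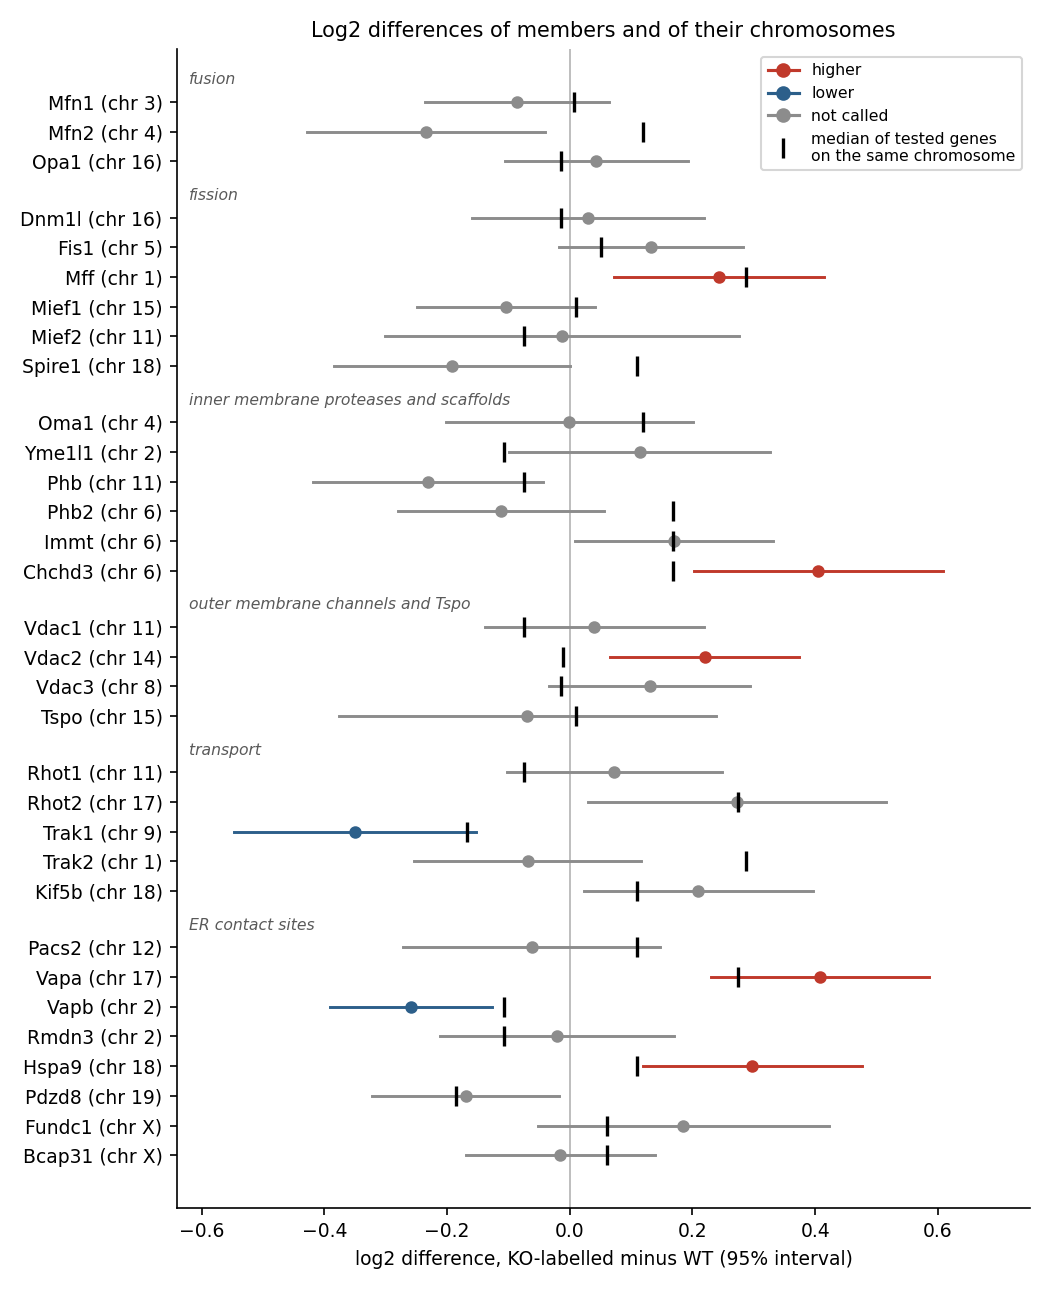
Points and bars give the log2 difference of each tested member with its 95% interval, KO-labelled minus WT, red where called higher, blue where called lower and grey where not called; black ticks give the median log2 difference of all tested genes on the same chromosome. The ticks lie on the same side of 0 as the point in 6 of the 7 called genes, Vdac2 being the exception.

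Levels per length spanned a wide range. Length was the union of all annotated exons of a gene and not that of an expressed transcript, so the order also depends on the annotation. In WT libraries Hspa9 (163 CPM per kb of exon), Vdac1 (146) and Bcap31 (119) led the members, followed by Tspo (70.4), Vdac2 (57.5), Vapa (45.9) and Kif5b (43.3). Of the 31 pairs of neighbours in this order, 19 overlapped in their WT libraries, among them Tspo with Vdac2 and Vapa with Kif5b, and 12 were apart, among them Hspa9 with Vdac1. At the low end of the tested members, Mief2 stood at 3.15, Oma1 at 4.29, Mief1 at 4.42 and Trak1 at 4.46 CPM per kb. The mitofusins differed from each other in level, with Mfn1 at 6.998 and Mfn2 at 17.97 CPM per kb, and within a library the Mfn1 to Mfn2 ratio overlapped between groups (exact permutation p = 0.3; adjusted p = 0.412).

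**Figure D4:**
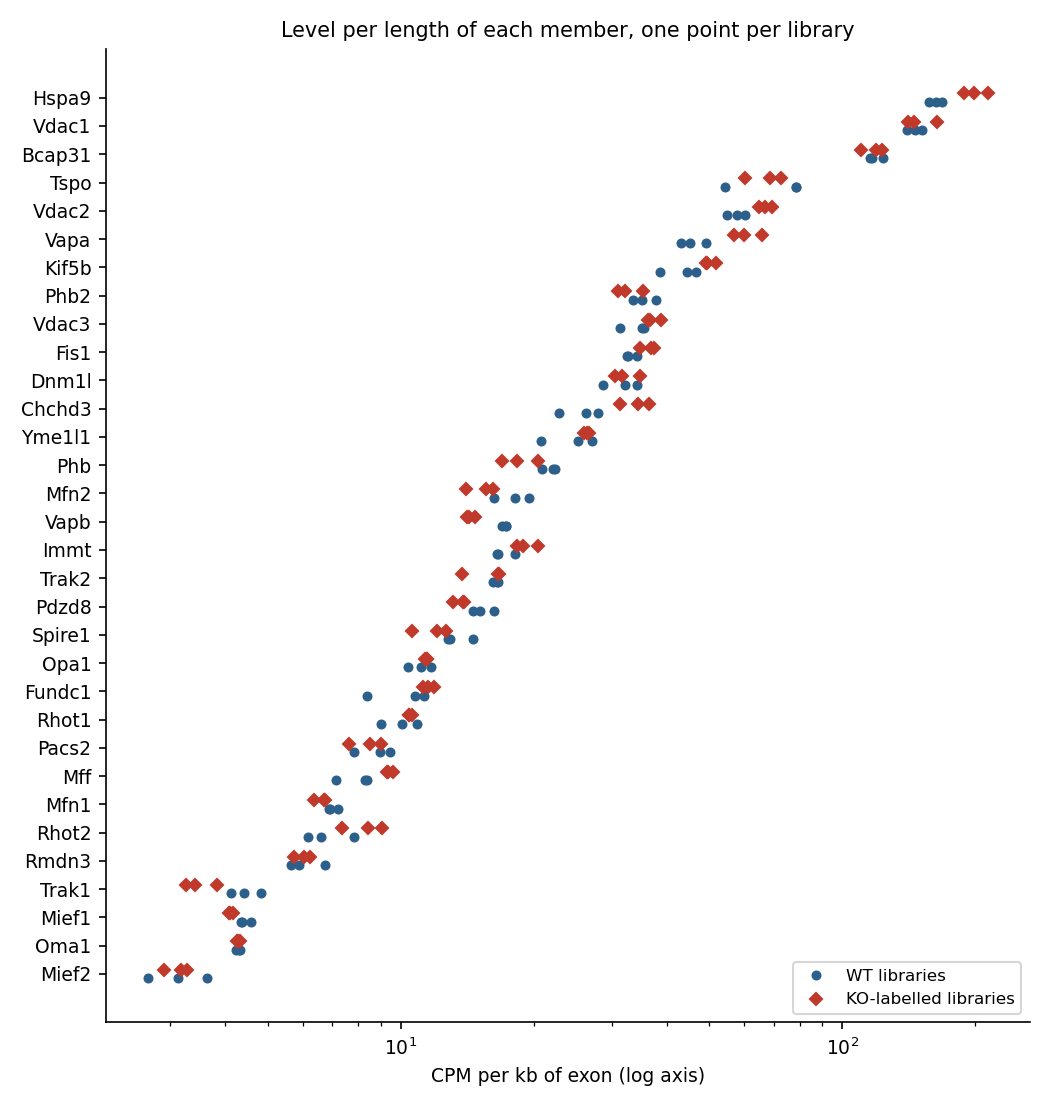
CPM per kb of exon (log axis) of the 32 tested members, ordered by their WT mean, with 1 point per library. The order runs from Mief2 at 3.15 to Hspa9 at 163 CPM per kb in WT, and the 2 groups follow each other closely along it.

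Of other genes of the same processes, 107 were listed, with earlier results of these data known, and 104 were tested. Some of them differed by more than any member. Of the 104, 16 were called higher and 18 lower (32.7%, where 38.9% of all genes were called), with a median log2 difference of -0.03. The median size, sign aside, was 0.18, where it was 0.13 for members and 0.28 for all genes. It was 0.21 over the 9411 genes at or above the WT level of the weakest tested member. The 104 genes had a median WT level of 50.2 CPM, against 89.4 CPM for members. That level was 17.9 CPM for all genes tested and 44.5 CPM for the 9411 genes. With the chromosome medians taken out the split was 9 higher and 26 lower.

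Among 15 other fusion and fission genes, 6 fell, none rose and 9 did not pass, with a median of -0.24. The called share was 40.0%, all of it lower, where 21.3% of all genes were called lower and 38.9% in either direction. With chromosome medians taken out 5 were lower and none higher. Inf2, an ER-bound formin that assembles actin before Dnm1l acts, measured 82.5, 80.6 and 82.2 CPM under the KO label against 174, 155 and 131 CPM in WT. No value of one group reached the other, and Inf2 fell by 0.91 (SE 0.10, adjusted p = 7.69e-05 by edgeR). Dnm2, a dynamin of endocytosis with a reported role in division, fell from 142 ± 8.01 to 106 ± 7.16 CPM, and March5, an outer membrane ubiquitin ligase that acts on Dnm1l and its adaptors, from 96.6 ± 6.11 to 79.1 ± 3.29 CPM. March5 was not called with the chromosome median taken out (adjusted p = 0.301) or without KO-labelled library 3 (0.0523), whereas Inf2 and Dnm2 were called under all 12 alternatives.

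Among 17 other inner membrane genes, 2 rose, 1 fell and 14 did not pass (17.6% called; 1 higher and 2 lower with chromosome medians taken out). Micos13, a small MICOS subunit, rose from 24.3 ± 1.05 to 30.9 ± 2.59 CPM, by 0.35 (adjusted p = 0.00721), but by 0.07 with the chromosome 17 median taken out (adjusted p = 0.521). Atad3a, an ATPase that spans both membranes, fell from 32.8 ± 2.49 to 26.5 ± 1.32 CPM. Ghitm, an inner membrane protein of cristae, stood at 331 ± 8.73 against 282 ± 15.9 CPM (adjusted p = 0.0266), a call lost on leaving out KO-labelled library 2 (0.0964) or 3 (0.0751) or WT library 1 (0.0791) or 2 (0.0655), and with no count filter (0.11).

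Among 16 other transport genes, 3 rose, 3 fell and 10 did not pass (37.5% called). With chromosome medians taken out this split became 1 higher and 7 lower. Fez1, a kinesin-1 adaptor best known from neurons, measured 8.01, 8.47 and 8.33 CPM under the KO label against 14.8, 16.5 and 15.8 CPM in WT. The groups were far apart relative to their spread, and Fez1 fell by 0.93 (SE 0.09, adjusted p = 3.19e-05 by edgeR). Klc2, a kinesin light chain, fell from 37.4 ± 2.76 to 25.6 ± 0.515 CPM and Myo19, the myosin that moves mitochondria on actin, from 43.3 ± 1.75 to 32.8 ± 1.46 CPM. These 3 were called under all 12 alternatives.

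Among 24 other contact site genes, 4 rose, 6 fell and 14 did not pass (41.7% called; 4 higher and 8 lower with chromosome medians taken out). Rab32, a small GTPase of ER and mitochondrial contacts, measured 62.5, 61.3 and 59.1 CPM under the KO label against 106, 108.5 and 105 CPM in WT. Each group was tight and the groups were apart, and Rab32 fell by 0.81 (SE 0.06, adjusted p = 8.67e-06 by edgeR). Cav1, the main caveolin, which is also found at ER contacts, fell from 102 ± 4.47 to 74.2 ± 2.44 CPM, and Osbpl5, a phosphatidylserine transfer protein, from 49.6 ± 2.29 to 37.0 ± 2.87 CPM. These 3 were called under all 12 alternatives.

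Among 16 mitophagy genes, 4 rose and 1 fell (31.2% called; 2 higher and 2 lower with chromosome medians taken out). Nipsnap1, which marks damaged mitochondria for autophagy, rose from 6.14 ± 0.476 to 9.40 ± 0.439 CPM, and Gabarapl1, an ATG8 protein, from 41.9 ± 1.46 to 54.0 ± 2.99 CPM, the latter not called with the chromosome median taken out (adjusted p = 0.0643). Bnip3, a mitophagy receptor induced by hypoxia, fell from 25.6 ± 4.24 to 18.9 ± 0.268 CPM and was not called without WT library 2 (adjusted p = 0.0636). Among 16 import and matrix proteins, 3 rose and 1 fell (25.0% called; 1 higher and 2 lower with chromosome medians taken out). Hspd1 and Hspe1, the mitochondrial chaperonins, which are divergently transcribed neighbours on chromosome 1, rose by 0.43 and 0.49 (adjusted p = 0.0148 and 0.00515). Without the chromosome median the differences were 0.14 (adjusted p = 0.382) and 0.20 (adjusted p = 0.178), and the call of Hspd1 was also lost without WT library 2 (adjusted p = 0.0572). Tomm40, the pore of the outer membrane import complex, fell by 0.46 on the log2 scale (SE 0.08, adjusted p = 0.00212), from a mean of 72.3 to 52.5 CPM.

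**Figure D5:**
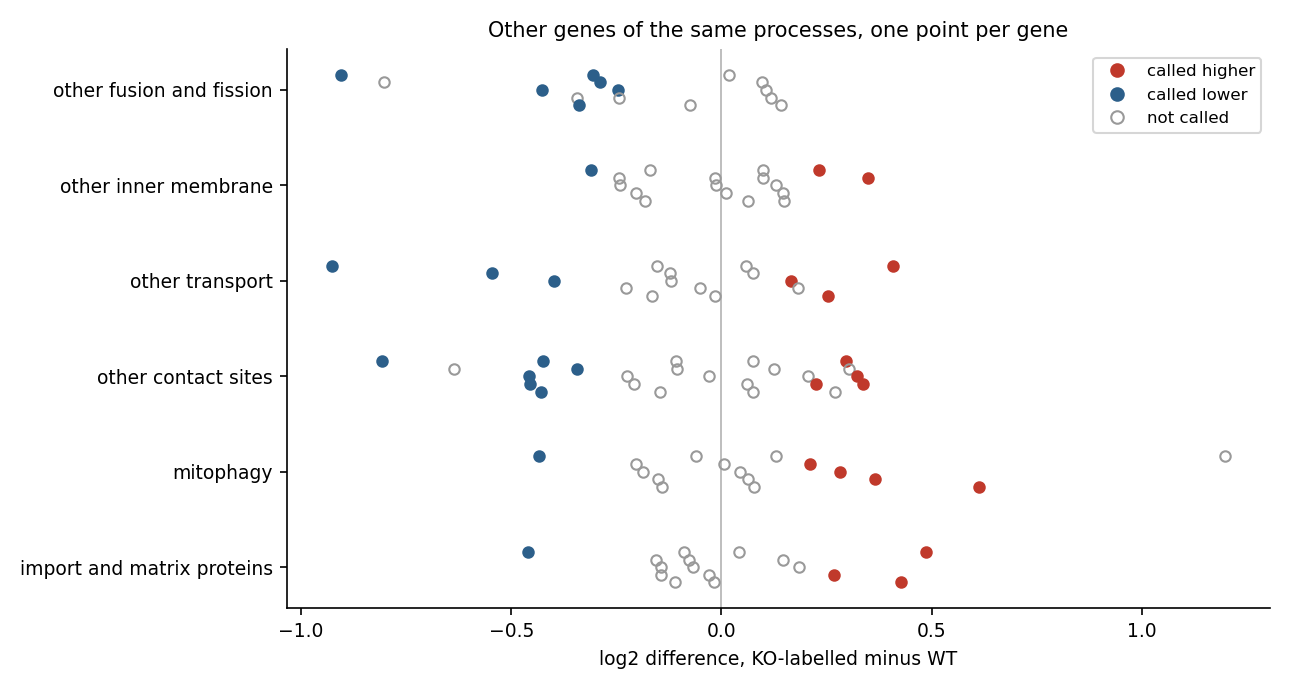
Each point is the log2 difference, KO-labelled minus WT, of 1 other gene of the process named on the left; filled red and blue points were called higher and lower, and open points were not called. Fusion and fission has 6 blue points and no red point, and the points farthest to the left are Fez1, Inf2 and Rab32, together with Mtfp1, which was not called.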

How the data were processed

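RNA of 6 libraries was analysed, 3 per group. Per the submitters' processing notes, which name cutadapt, RSEM and GRCm38, the deposited values are expected counts per Ensembl gene estimated by RSEM; their versions, the aligner and the strandedness of counting were not given in the sources used here. RSEM divides reads among matching genes: 17.9% of values were not whole, and 7 members (Mfn1, Dnm1l, Mff, Phb, Rhot2, Kif5b and Rmdn3) had no whole value in any library, so their counts are the less certain.

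Symbols, positions and exon lengths came from GENCODE M21 (GRCm38); 55230 of 55471 identifiers matched. Counts were rounded, filtered with filterByExpr (minimum count 10, total 15), scaled by TMM and compared with edgeR 4.0.16 (R 4.3.3), quasi-likelihood F test, two-sided, Benjamini-Hochberg over 15454 genes. Intervals are 95% from the moderated t quantile. Ratios were tested with scipy 1.17.1. Alternatives were DESeq2 1.42.0 size factors and Wald test, library size alone, other count filters, the replicate number as a block, chromosome medians (of at least 100 genes) as offsets, and each library left out; chromosome medians were taken out of the ratios after seeing the data.

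All members were named, and of each of 6 further lists up to 3 called genes with the smallest adjusted p; promoters are shown for the 4 members with the smallest adjusted p. Members and lists were chosen with earlier results of these data known. No 2 replicates agreed within sampling noise.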

Additional observations from a re-analysis of the deposited data

How the results depend on the processing

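Over 12 alternatives, 310 of 384 member values kept direction and side of the threshold, 21 lost and 21 gained a call, and 32 changed sign. Depth limits Gdap1. Members called higher (5) numbered 3 with the replicate block and 1 with chromosome medians as offsets, and 2 to 6 with 1 library left out (2 without WT library 2); members called lower (2) numbered 4 with DESeq2, 6 without a count filter (Gdap1 among them) and 4 with the offsets. Other genes of these processes called higher (16) numbered 10 with the block, 9 with the offsets and 6 to 19 with 1 library left out (6 without WT library 2, 8 without KO-labelled library 2 and 9 without KO-labelled library 3); those called lower (18) numbered 28 without a filter. The cause of these shifts was not tested. All genes called were 6011, and 4353 to 6652 under the alternatives.

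Signs changed as follows. With chromosome offsets, the values were Mff -0.043, Mief2 0.061, Rhot2 -0.0016, Rmdn3 0.086 and Pdzd8 0.016. With library size alone they were Mief2 0.0056, Oma1 0.021, Rmdn3 0.0010 and Bcap31 0.0045, and with 1 CPM required Mief2 0.0099, Oma1 0.023, Rmdn3 0.0028 and Bcap31 0.0075. In the ratios, chromosome medians turned Mff to Fis1 to -0.12, Phb to Phb2 to 0.12, Rhot1 to Rhot2 to 0.15 and Trak1 to Trak2 to 0.18. Oma1 was 0.0021 with DESeq2 and Dnm1l -0.0051 without a filter. With 1 library left out, the ranges were Opa1 -0.0033 to 0.083, Dnm1l -0.041 to 0.089, Mief2 -0.12 to 0.10, Oma1 -0.012 to 0.0059, Vdac1 -0.030 to 0.081, Tspo -0.23 to 0.014, Trak2 -0.12 to 0.018, Pacs2 -0.14 to 0.0028, Rmdn3 -0.076 to 0.058, Bcap31 -0.053 to 0.029 and the log2 ratio of Mief1 to Mief2 -0.22 to 0.0012.

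Same-numbered libraries did not visibly deviate together (correlations of 0.022, -0.081 and -0.034 for numbers 1, 2 and 3). Differently numbered libraries gave -0.096 to 0.152. With 3 libraries per group, this check cannot decide whether the numbers pair the libraries. With the replicate block 3 members were called higher and 2 lower, and 4994 genes in all. The calls of Hspa9 (adjusted p = 0.0627), Mff (0.0553), Vdac2 (0.101) and Ghitm (0.0741) were lost, and Rhot2 passed (0.0363).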
